A study of Caenorhabditis elegans with 2 samples.

Results

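Regions of ALY-2 signal at the places where 2 neighbouring genes of an autosome end facing each other were examined. In such a convergent pair the gene on the plus strand lies on the left, the gene on the minus strand lies on the right, and both are transcribed towards the shared 3′ side. A listed region was a member when its summit, the base of highest signal, lay within 500 bp of the 3′ end of such a pair, with ends at most 1000 bp apart or overlapping, and more than 500 bp from the 5′ end of any protein-coding gene. Of the 17335 regions called on the pooled replicates, 14425 were autosomal and 1174 were members. They lay at 972 of the 2898 autosomal convergent pairs (33.5%). The height of a listed region was not used in this choice, though the calling of the list and the place of the summit rest on signal.

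The chromatin was immunoprecipitated from whole L3 larvae of Caenorhabditis elegans, males and females pooled, and the recovered DNA was sequenced (ChIP-seq). The strain, OP217, carries the integrated transgene ddIs172 and the mutation unc-119(ed3), and the labels describe the tagged protein as eGFP-aly-2. There was 1 group of 2 biological replicates and no control sample was analysed here, so values are compared between places in the genome and between replicates. The sources used here give neither the promoter that drives the transgene nor the state of the endogenous gene. In whole larvae, signal in few cells and weaker signal in many cells cannot be told apart.

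ALY-2 is an Aly/REF protein. In yeast and mammals such proteins join an mRNA while it is still being made, as part of the TREX complex, and hand it to the export receptor that carries it through the nuclear pore. Contacts of the family with the machinery that cleaves and polyadenylates the 3′ end are known from yeast and human cells. The genome of C. elegans is compact, and its convergent genes often end close to each other.

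Sequences at the pairs of the 6 highest members are shown first, because these members carry the tallest signal described below. Each is from the RefSeq copy of WBcel235, the assembly that ce11 also names, and all coordinates are 1-based on it. The gap between the facing ends is shown on the plus strand where it was 30 to 300 bases long and held no annotated transcript, and otherwise 30 bases around the summit. A gap need not hold the summit. That of C36E8.4/tbb-2 lies wholly outside the listed region (4015434 to 4015565), and that of hsp-1/nra-1 excludes its summit at 17281530. Capitals mark AATAAA, the canonical polyadenylation signal, or TTTATT, the same word on the other strand.
nep-25/ZK1248.17, summit (chrII:5844953-5844982, +): tggggttatccggcgaagcaaacatgaatt
C36E8.4/tbb-2, gap (chrIII:4015780-4015909, +): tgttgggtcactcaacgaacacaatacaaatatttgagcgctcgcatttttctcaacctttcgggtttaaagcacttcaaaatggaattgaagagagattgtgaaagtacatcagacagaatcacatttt
F07A11.5/din-1, summit (chrII:11614473-11614502, +): ttaccgtttaatgttaatgtttgttccaaa
ZC190.4/ZC190.5, gap (chrV:8671681-8671963, +): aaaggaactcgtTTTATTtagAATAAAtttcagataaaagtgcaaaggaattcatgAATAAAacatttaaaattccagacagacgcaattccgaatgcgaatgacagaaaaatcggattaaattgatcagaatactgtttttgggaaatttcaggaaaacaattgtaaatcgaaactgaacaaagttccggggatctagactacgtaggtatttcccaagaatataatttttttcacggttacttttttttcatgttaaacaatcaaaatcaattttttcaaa
hsp-1/nra-1, gap (chrIV:17281331-17281454, +): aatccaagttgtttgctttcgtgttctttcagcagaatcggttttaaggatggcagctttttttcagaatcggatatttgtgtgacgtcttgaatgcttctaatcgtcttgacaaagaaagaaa
zip-2/dos-3, summit (chrIII:835845-835874, +): agttccaatagagggaaagtgaatagcact

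The last 30 bases of genes in these pairs, each read on its own strand, show how close the annotated ends lie to that word. These were chosen after their values were seen. The 5 below hold AATAAA, with 11 to 18 bases after it before the end of the gene model.
C36E8.4 (chrIII:4015750-4015779, +): tcttggcggcacAATAAAgtttcctctttt
F07A11.5 (chrII:11614362-11614391, +): attaggtctgaAATAAAaattctgctttcc
hsp-1 (chrIV:17281301-17281330, +): tagaatggtgaacAATAAAaaaattaaaat
ZC190.5 (chrV:8671964-8671993, -): tagttcAATAAAattgttaataattttcac
zip-2 (chrIII:835785-835814, +): aatcaaAATAAAgtagaaaaatagaaataa
ZC190.4 held the word as well, 14 bases before its end. The ends of nep-25, ZK1248.17, tbb-2, din-1, nra-1 and dos-3 held no AATAAA in these 30 bases.

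The highest member lay between nep-25, a gene for a neprilysin-type peptidase, and ZK1248.17 (chromosome II, 5844770 to 5845165). Its height, the signal value the authors gave each region, was 126.2 in the pooled list, 57.5 in replicate 1 and 78.6 in replicate 2, and it ranked 15 of 17335. The gap of 633 bp between these genes also holds sls-2.1, which encodes an SL2 spliced leader RNA, so a noncoding gene lay within 500 bp of this summit as well.

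Next in height was a region at the end of tbb-2, a beta-tubulin gene, with a pooled height of 91.3 (33.5 in replicate 1 and 65.7 in replicate 2). It was the 1 member narrower than the 396 bp of the other 1173, and its summit lay in an intron of the facing gene C36E8.4, 359 bp beyond the end of tbb-2. The region between F07A11.5 and din-1, a gene for a SPEN-type corepressor, had a height of 87.8, with 57.6 in replicate 1 and 33.7 in replicate 2. Between ZC190.4 and ZC190.5 the height was 86.0, with 47.7 and 37.3. In these 3 regions neither replicate was always the higher one.

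At hsp-1, which encodes the constitutive Hsp70 chaperone, the region of height 85.8 was nearly equal in the replicates, at 42.4 and 45.5. Its summit lay 200 bp beyond the end of hsp-1 and 75 bp inside nra-1, which encodes a copine. The pair of zip-2, a bZIP transcription factor gene, and dos-3 overlaps by 64 bp and carried 2 regions that overlap each other, of heights 80.3 and 57.0. Both matched the same region of replicate 1 (31.2), while replicate 2 gave 53.8 and 37.8, so they are not separate measurements in replicate 1. The same was true of the 2 regions at atp-1, which encodes the alpha subunit of the mitochondrial ATP synthase, with pooled heights of 77.5 and 50.4, 21.3 for both in replicate 1, and 72.2 and 40.1 in replicate 2.

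The rest of the 20 highest members had pooled heights from 59.2 to 77.7. They lay at Y82E9BR.3/lelo-2 (77.7), at the neuropeptide gene nlp-40 with the CoREST homologue rcor-1 (76.7), at K08D12.4 with the proteasome subunit gene pbs-1 (75) and at arrd-6 with the zinc finger factor gene pqm-1 (73.7). Then came best-18 with the citrate synthase gene cts-1 (71.0), the cathepsin B-type protease gene cpr-9 with F57F5.3 (70.5), the hnRNP U homologue hrpu-1 with the chemoreceptor gene srt-47 (69.1) and rpl-3 with the SARM1 homologue tir-1 (68.7). The last 5 were F25B5.3 and nono-1 (67.8), tfg-1 and the DnaJ-type gene dnj-29 (67.3), F32B5.6 and F32B5.7 (65.0), R12B2.8 and the Mediator subunit gene mdt-15 (60.2), and F21A9.1 with the histone methyltransferase gene lin-59 (59.2).

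Replicate heights of these 20 had the largest ratios at F25B5.3/nono-1, with 13.6 in replicate 1 and 53.2 in replicate 2, and at atp-1/T26E3.7, with the 21.3 and 72.2 given above. They were closest at arrd-6/pqm-1, with 36.1 and 35.5. Replicate 2 was the higher one in 13 of the 20 and replicate 1 in 7. Summits lay between the facing ends in 6 of them, in the plus-strand gene in 5 and in the minus-strand gene in 9.

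**Figure D1:**
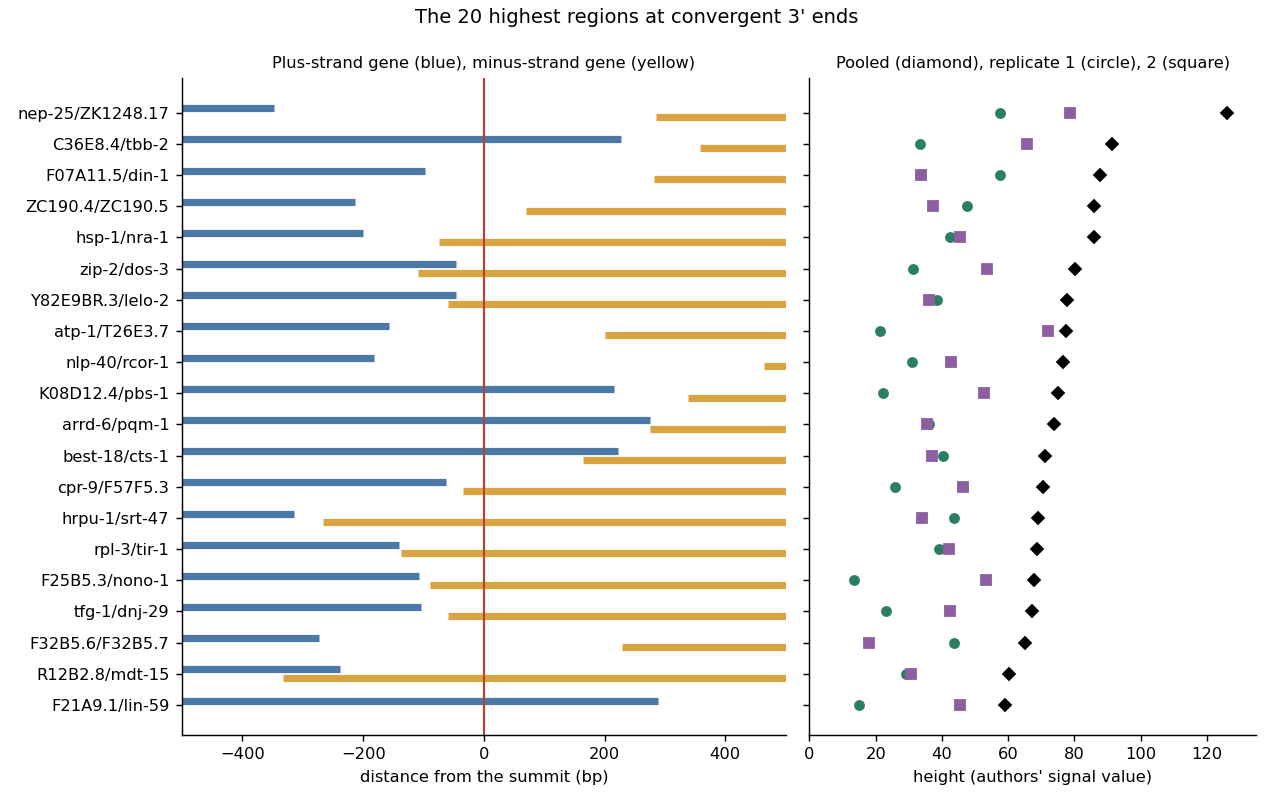
The 20 highest members, each aligned at its summit (red line): on the left the plus-strand gene (blue) and the minus-strand gene (yellow) within 500 bp of the summit, and on the right the authors' height in the pooled list and in each replicate. Heights run from 59.2 to 126.2 in the pooled list, and the lin-59 end lies 536 bp away, outside the plot.

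The question of how often such gene ends carried signal was asked over all pairs. Of 2898 pairs, 33.5% had a member in the pooled list. The 972 pairs comprised 784 with 1 member, 174 with 2 and 14 with 3, and joining overlapping regions left 1036 of 1174. The lists of single replicates are longer, with 30000 and 26751 regions against 17335 pooled. In them 42.2% of pairs (replicate 1, 1488 regions) and 40.9% (replicate 2, 1522 regions) had a region by the same rule. Pairs with 3 members included hrpu-1/srt-47, with heights from 14.5 to 69.1, mbk-2/F49E11.2 (17.3 to 46.8) and the pair of the elongator gene elpc-2 and the SR protein gene rsp-3 (15.9 to 32.6). The other 11 had no region in the authors' optimal list and a highest member between 23.2 and 35.3.

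Members were set beside the authors' optimal list, which holds the 368 highest pooled regions, those kept at their threshold of irreproducible discovery rate. Of 1174 members 62 were in it (5.28%, 95% Wilson interval 4.14 to 6.71%), against 2.12% of all pooled regions and 2.2% of autosomal ones. These 62 lay at 60 pairs, 2.07% of all pairs. At other autosomal 3′ ends, those not of a convergent pair, 38 of 1499 regions were in the list (2.54%, 1.85 to 3.46%), and at 5′ ends 139 of 3438 (4.04%, 3.43 to 4.75%). Autosomal regions near neither kind of end had the lowest share, 79 of 8314 (0.95%). The intervals of convergent and other 3′ ends did not overlap, while those of convergent 3′ ends and 5′ ends did. They cover counting over regions, not read depth or animals, and no test was run.

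Heights gave the same order, which is not separate evidence, since the optimal list is itself a cut on height. Members had a median of 20.1 (quartiles 16.5 and 26.8, range 14.2 to 126.2), against 18.7 at other 3′ ends, 19 at 5′ ends and 18.1 over all pooled regions. In replicate 1 the medians were 10.2 for members of its own list and 9.33 for the whole list, and in replicate 2 they were 10.7 and 9.31. The ratio of these medians was thus 1.11 in the pooled list, 1.09 in replicate 1 and 1.15 in replicate 2. The lowest member of the optimal list had a height of 43.8 (best-9/bicd-1) and the highest member outside it 43.6 (prom-1/phac-1).

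Because convergent ends cover little sequence, the counts were also set against the bases where a summit would have counted. Convergent 3′ ends offered 3.16 Mb and held 372 pooled regions per Mb. Other 3′ ends offered 7.19 Mb and held 209 per Mb, 5′ ends held 213 per Mb and the remaining autosomal bases 148 per Mb. For the optimal list the densities were 19.6 per Mb at convergent ends, 5.29 at other 3′ ends and 8.60 at 5′ ends. Convergent ends were thus the densest of the 4 classes, 1.78 times as dense as other 3′ ends in the pooled list.

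Convergent ends were also the densest class in each replicate alone. Replicate 1 listed 472 regions per Mb at convergent ends and 332 at other 3′ ends, and replicate 2 listed 482 and 299, ratios of 1.42 and 1.61. Among the 368 highest regions of each, convergent ends had 15.5 per Mb in replicate 1 and 16.8 in replicate 2, against 7.52 and 5.85 at other 3′ ends. Members made up 13.3% of the 368 highest regions of replicate 1 (10.2 to 17.2%) and 4.96% of its whole list. In replicate 2 these shares were 14.4% (11.2 to 18.4%) and 5.69%, and in the pooled list 16.8% (13.4 to 21.0%) and 6.77%.

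**Figure D2:**
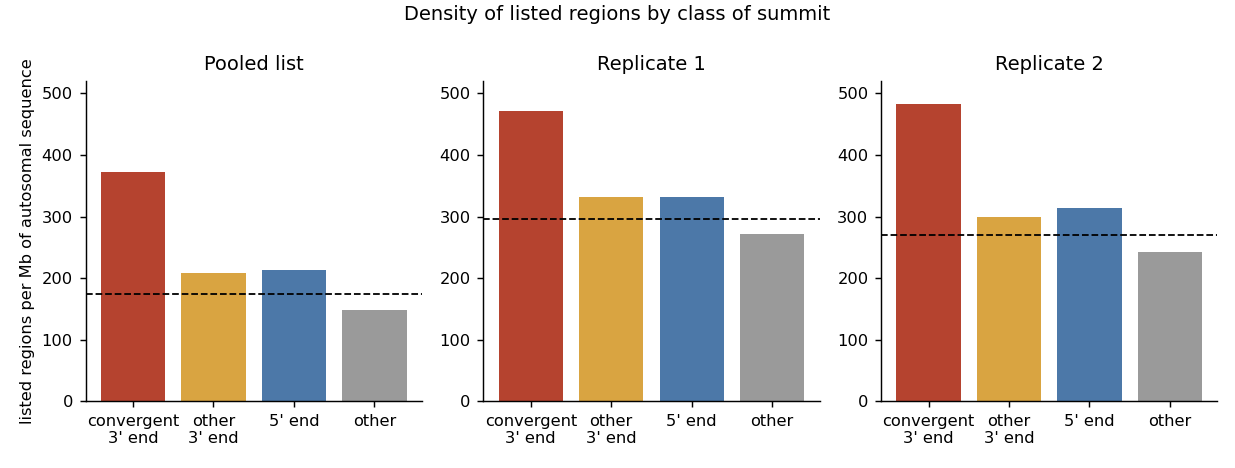
Listed regions per Mb of autosomal sequence in each class, for the pooled list and each replicate; bars start at 0 and the dashed line is the density over all autosomal bases. Convergent 3′ ends are highest in all 3 lists, with 372, 472 and 482 regions per Mb.

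Most members were seen in at least 1 replicate, and about as many in both as not. A region of the replicate's list overlapped the pooled summit in both replicates for 618 members (52.6%, 49.8 to 55.5%), in replicate 1 alone for 232, in replicate 2 alone for 287 and in neither for 37. At other 3′ ends 46.4% were in both (43.9 to 49.0%), and over all pooled regions 40.5%. Across the 618 members found in both, heights had a Spearman rho of 0.36 and a Pearson r of 0.49, given as a description, since regions share libraries and overlapping ones share values. Of the 62 members in the optimal list 61 were in both replicates, a share shaped by the selection of that list for reproducible regions. Among those 61 rho was -0.043, and these had been selected on the pooled height, to which both replicates contribute.

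**Figure D3:**
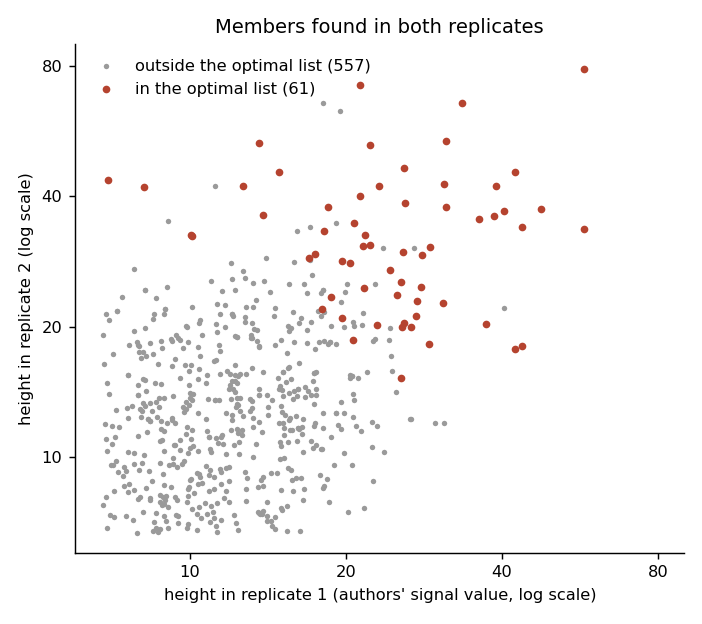
Height in replicate 1 (x axis) against replicate 2 (y axis) for the 618 members found in both, on log scales, with the 61 of the optimal list in red. The red points form an outer band, with rho -0.043 among themselves and 0.36 over all 618.

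Where the summits lay inside the pair was examined next. The plus-strand gene held 452 summits (38.5%, 35.8 to 41.3%), the minus-strand gene 463 (39.4%, 36.7 to 42.3%), the gap between separate ends 216 (18.4%, 16.3 to 20.7%) and the stretch shared by overlapping genes 43 (3.66%, 2.73 to 4.90%). These shares were close to those of the eligible bases, 40.1%, 40.7%, 16.4% and 2.89%. The plus-strand and the minus-strand genes thus held like shares. The optimal list had 16, 27, 16 and 3 members in these places.

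Distance from the middle of the pair showed more. For pairs with separate ends, the bins of 100 bp on the left and right of the midpoint had 506 and 630 members per Mb of eligible bases, whereas the bins from 400 to 500 bp had 193 and 189. For overlapping pairs the profile was flatter and wider, with 535 to 624 members per Mb within 200 bp of the midpoint and 282 and 271 from 400 to 500 bp. The median distance to the nearest of both ends was 173.5 bp for all members, a value that the rule's limit of 500 bp shapes: it was 108.5 bp with a limit of 250 bp and 232 bp with 1000 bp. Under the same limit of 500 bp, members in the optimal list had 161 bp. Of all members 802 (68.3%, 65.6 to 70.9%) lay beyond the nearest end rather than inside that gene. Any summit outside a shared stretch lies beyond at least 1 of both ends by geometry. In overlapping pairs that is as a rule the nearest end, and in separate pairs only summits between the ends lie beyond the nearest one. The share of 68.3% thus follows largely from the mix of pairs and places. No share of eligible bases stands beside it, and no preference is read from it.

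**Figure D4:**
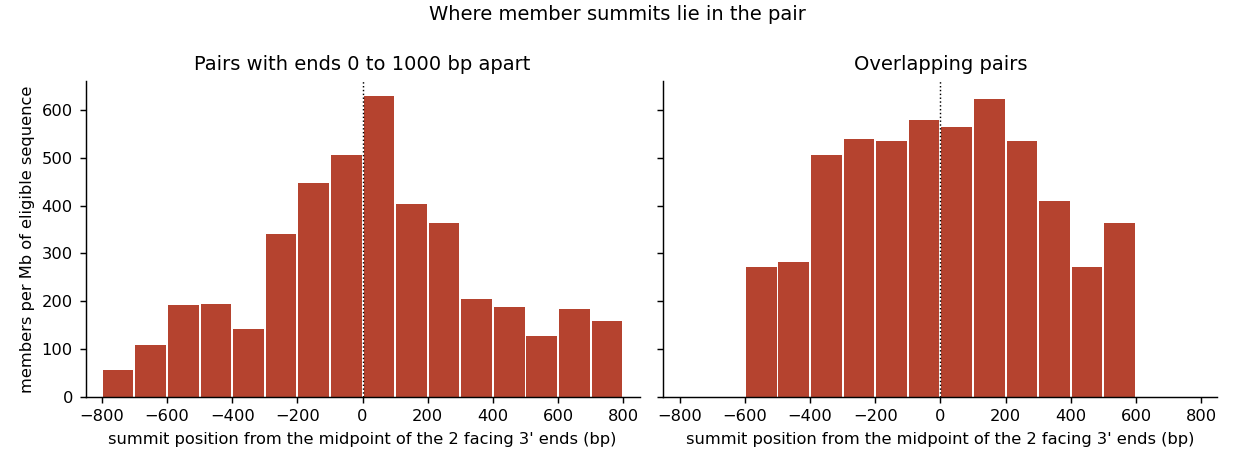
Members per Mb of eligible sequence in bins of 100 bp by distance from the midpoint of the facing ends, for separate pairs (left) and overlapping pairs (right). Separate pairs peak at 630 per Mb just right of the midpoint and fall to about 190 per Mb at 400 to 500 bp, while overlapping pairs stay between 535 and 624 per Mb within 200 bp.

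The spacing of the pair went with how often it carried a member. The median gap of all pairs was 15 bp, and 1346 of 2898 pairs overlapped. A member was present at 38.5% of the 1143 pairs that overlap by up to 100 bp (35.7 to 41.4%) and at 27.5% of the 799 pairs 301 to 1000 bp apart (24.6 to 30.7%). The optimal share of members ran otherwise. It was 7.64% (4.32 to 13.2%) for ends 0 to 100 bp apart and 9.52% (5.53 to 15.9%) for ends 101 to 300 bp apart, against 4.23% (2.83 to 6.26%) at pairs overlapping by up to 100 bp. At those 301 to 1000 bp apart it was 4.78% (2.81 to 8.0%). These last shares rest on 11, 12, 23 and 13 regions.

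By annotation, 413 summits fell in a UTR (35.2%), 312 in coding sequence (26.6%), 233 in an intron (19.8%) and 216 outside both genes (18.4%). In the optimal list introns held 6 of 62 (9.68%, 4.51 to 19.5%), and the median height of members in introns was 18.7, against 20.6 in UTRs. Just inside the limit of the rule, 401 to 500 bp from the nearest end, 101 regions had a median height of 18.3, and just outside it, at 501 to 600 bp, 82 had 17.9. Neither set held an optimal region. At the limit to 5′ ends, 33 members lay 501 to 600 bp away (median 20.7, 2 of them optimal), and 30 regions that missed it lay 401 to 500 bp away (19.8, none optimal).

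Chromosomes differed in the share of pairs with a member. Chromosome III had the highest, 198 of 487 pairs (40.7%, 36.4 to 45.1%), followed by I (36.9%), IV (36.5%) and II (30.7%), and chromosome V the lowest, 216 of 798 (27.1%, 24.1 to 30.3%). Of the optimal regions on each chromosome, members were 18 of 69 on III, 18 of 65 on IV, 15 of 77 on I, 7 of 57 on II and 4 of 50 on V. All listed members numbered 252, 225, 245, 201 and 251 in the same order. As shares of all listed regions of the chromosome these were 9.08%, 7.31%, 8.30%, 7.87% and 8.19%. Chromosome V was thus lowest by pairs but not by regions. When each chromosome was split into 3 equal lengths, 38.6% of pairs in the middle one (35.9 to 41.3%) and 29.9% in the outer ones (27.7 to 32.1%) had a member. The middle lengths held 47.1% of members and 39.8% of all autosomal regions.

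Noncoding genes near the summits were counted beside those at all autosomal regions. A snoRNA gene lay within 500 bp of 14 summits (1.19%, against 1.26% of autosomal regions). An snRNA gene lay near 8 (0.681% against 0.416%), a tRNA gene near 8 (0.681% against 0.894%) and a miRNA gene near 0 (upper Wilson bound 0.326%), against 0.430%. Among the 62 optimal members, 3 were near a snoRNA gene and 2 near a spliced leader gene, sls-2.1 and sls-2.9. The region near sls-2.9, between the topoisomerase gene top-1 and sepa-1, had heights of 48.2 in the pooled list, 8.16 in replicate 1 and 41.9 in replicate 2. A tRNA gene, WBGene00014446, also lay within 500 bp of its summit, and this was the 1 optimal member near a tRNA gene. Genes of piRNAs, the small RNAs of the germline, were near 2.64% of members (1.87 to 3.72%), against 5.78% of autosomal regions, and pseudogenes near 0.596% against 2.21%. Of the 28 members near a snoRNA, snRNA, tRNA or miRNA gene, 5 were in the optimal list (17.9%, 7.88 to 35.6%). Leaving out these 28 left 57 of 1146 in the optimal list (4.97%, 3.86 to 6.39%). No share over all autosomal optimal regions stands beside the counts of optimal members near such genes.

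Whether the same genes also carried signal at their 5′ ends was compared over pairs. A pooled region lay within 500 bp of a 5′ end of the pair at 423 of 972 pairs with a member (43.5%, 40.4 to 46.7%), at 639 of 1926 pairs without one (33.2%, 31.1 to 35.3%) and at 30 of 60 pairs with an optimal member (95% interval 37.7 to 62.3%). An optimal region lay at a 5′ end in 2.57% of pairs with a member (1.75 to 3.77%) and in 0.935% of pairs without (0.592 to 1.47%). Both ends were in the optimal list at 3 pairs. At rpl-3 the 5′ region had a height of 178.6 and the 3′ region 68.7, at hrpu-1 they had 53.1 and 69.1, and at the protease gene aex-5, paired with maph-1.1, 85.9 and 48.2.

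Pairs with a member also differed in the make-up of their genes, values that move with the counts above and whose part in them was not tested. The median gene length was 2626 bp in pairs with a member, 1868 bp in those without and 3332 bp in those with an optimal member. Short genes leave less sequence more than 500 bp from a 5′ end. Gene models that end at the stop codon, with no annotated 3′ UTR, made up 5.45% of genes in pairs with a member (4.53 to 6.55%), 14.7% in pairs without (13.6 to 15.8%) and 1 of 120 in pairs with an optimal member (0.833%).

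Gene lists were set against the background of 33.5% of pairs with a member and of 372 members per Mb. Density is given for some lists only. Over all pairs, 60 of 2898 (2.07%) had an optimal member. Counts of optimal pairs in short lists, 0 among them, are therefore not read as results. The 21 lists were formed by gene name, so a few hold genes of other function, 1 pair can count in 2 lists, and no list was tested. The pathway of ALY-2 itself, mRNA export with the THO/TREX complex and the nuclear pore, had a member at 9 of 14 pairs (64.3%, 38.8 to 83.7%) and 879 members per Mb, with 0 in the optimal list. Its highest was at thoc-2, a THO subunit gene, whose region of height 42.3 (30.9 in replicate 1, 12 in replicate 2) had its summit 40 bp inside thoc-2 and 233 bp beyond rps-13. The next lay at the nucleoporin genes npp-16 (28.2, not found in replicate 1) and npp-12 (24.1).

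Genes for cleavage, polyadenylation and termination had a member at 6 of 10 pairs (60.0%, 31.3 to 83.2%), none of these members optimal. Their density was 770 members per Mb. The highest was at xrn-1, the cytoplasmic exonuclease gene, at 21.5, with 11.5 and 11.2 in the replicates. At clpf-1, a cleavage factor gene, it was 18.2 (not found in replicate 2), and at xrn-2, the exonuclease of termination, 17.7 (8.53 and 7.07). In the replicate lists 8 and 4 of these 10 pairs had a region. RNA polymerase II and elongation factors had 4 of 7 pairs, led by the PAF complex gene cdc-73 (35.4), cdk-12 (30.1) and spt-5 (25.7, not found in replicate 2). Splicing factors had 6 of 15 pairs (interval 19.8 to 64.3%) and 769 members per Mb, led by hrpu-1 (69.1), rsp-8 (34.8) and rsp-5 (34.7).

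Cytosolic ribosomal protein genes had a member at 15 of 31 pairs (48.4%, 32.0 to 65.2%) and 773 members per Mb, and 4 of these pairs were in the optimal list. Their 18 members had a median height of 29.4, against 20.1 for all members, and 12 were found in both replicates. The highest was at rpl-3 (chromosome III, 3869530 to 3869925), of height 68.7, with 39 and 42.2 in the replicates and its summit 141 bp beyond the gene, inside tir-1. At rps-2 (54.3, with 37.2 and 20.3) the summit lay 103 bp beyond, at rpl-11.1 (53.5, with 25.7 and 29.7) 221 bp beyond, and at rpl-4 (47.4, with 26.7 and 19.97) 123 bp beyond.

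All 18 of these summits lay beyond the end of the ribosomal protein gene, at 18 to 791 bp and a median of 172 bp. Of these, 10 lay inside the facing gene and 8 between the ends. Ribosomal protein genes are short, and 69.0% of the eligible bases at their pairs lie beyond their ends, since much of the gene body is within 500 bp of its own 5′ end. Over all pairs 56.7% of eligible bases and 57.4% of gene-by-summit counts lay beyond the end in question. In the replicate lists 23 of 25 summits (replicate 1) and 19 of 21 (replicate 2) lay beyond the ribosomal protein gene.

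Other genes of translation and of protein turnover followed. Translation factors had a member at 4 of 9 pairs, the highest at eif-2A (36.0) and eef-1A.1 (29.3, with 7.38 and 23.4 in the replicates), and mitochondrial ribosomal proteins at 6 of 26 (23.1%, 11 to 42.1%), the highest at mrpl-40 (50.8). Proteasome subunits had 12 of 17 pairs (70.6%, 46.9 to 86.7%) and 909 members per Mb, with 2 in the optimal list. These were pbs-1 (75, with 22.3 and 52.7) and rpn-6.1 (47.9, with 20.4 and 28.0), followed by rpn-8 (41.7). The interval of the proteasome list lay above 33.5%, and in the replicate lists 11 and 13 of its 17 pairs had a region.

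Chaperones had 12 of 21 pairs (57.1%, 36.5 to 75.5%) and 597 members per Mb, led by hsp-1 (85.8), dnj-29 (67.3) and dnj-1 (28.2). Among genes of energy metabolism, the respiratory chain and ATP synthase had 4 of 10 pairs, led by atp-1 (77.5). The vacuolar ATPase had 3 of 5, led by vha-5 (47.8, a region not found in replicate 1). Glycolysis had 2 of 2, at the pyruvate kinase gene pyk-1 (43.8) and the aldolase gene aldo-2 (22.9, not found in replicate 2). Muscle genes had 5 of 5 pairs with none in the optimal list. They were led by the myosin light chain gene mlc-3 (41.3), the myosin heavy chain gene myo-3 (26.3) and the troponin I gene tni-4 (24.0). The region at tni-4 was not found in replicate 2. Histones had 7 of 21 (33.3%), near the background share, but 558.8 members per Mb, above the background density. The names of cuticle collagens and the dpy, rol, sqt and bli genes gave 25 of 56 pairs (44.6%, 32.4 to 57.6%), led by col-90 (45.4).

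Chemoreceptors, G protein-coupled receptors expressed mainly in sensory neurons, had a member at 53 of 277 pairs (19.1%, 14.9 to 24.2%) and 184.2 members per Mb. Only srt-47 (69.1) and srg-21 (51.5) lay at an optimal member, and their facing genes are hrpu-1 and the coatomer gene copb-1. In replicate 1 28.5% of chemoreceptor pairs had a region, against 42.2% of all pairs, and in replicate 2 27.1% against 40.9%. Neuropeptide genes had 7 of 35 pairs (interval 10.04 to 35.9%), the highest at nlp-40 (76.7, with 30.9 and 42.7), and nuclear hormone receptors, a family of transcription factors, were near the background with 24 of 68 (35.3%, 25 to 47.2%), the highest at nhr-22 (44.8).

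Shares of the lists named for the intestine, epidermis and germline were below the background, though the interval of the germline list, 4.70 to 44.8%, included it. Muscle genes (5 of 5 pairs) and cuticle collagens (25 of 56) were above it, the latter with an interval that included it. Lists of tissue genes thus did not all go the same way. The intestine list had a member at 16 of 80 pairs (interval 12.7 to 30.05%), led by cpr-9 (70.5) and the C-type lectin gene clec-180 (51.7). The epidermis list had 9 of 48 (18.8%, 10.2 to 31.9%), led by grl-10 (41.8), whose region it shares with rpl-39. The germline list had 2 of 12, at glh-2 (19.3, not found in replicate 1), a Vasa-type helicase gene, and puf-12 (14.2).

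**Figure D5:**
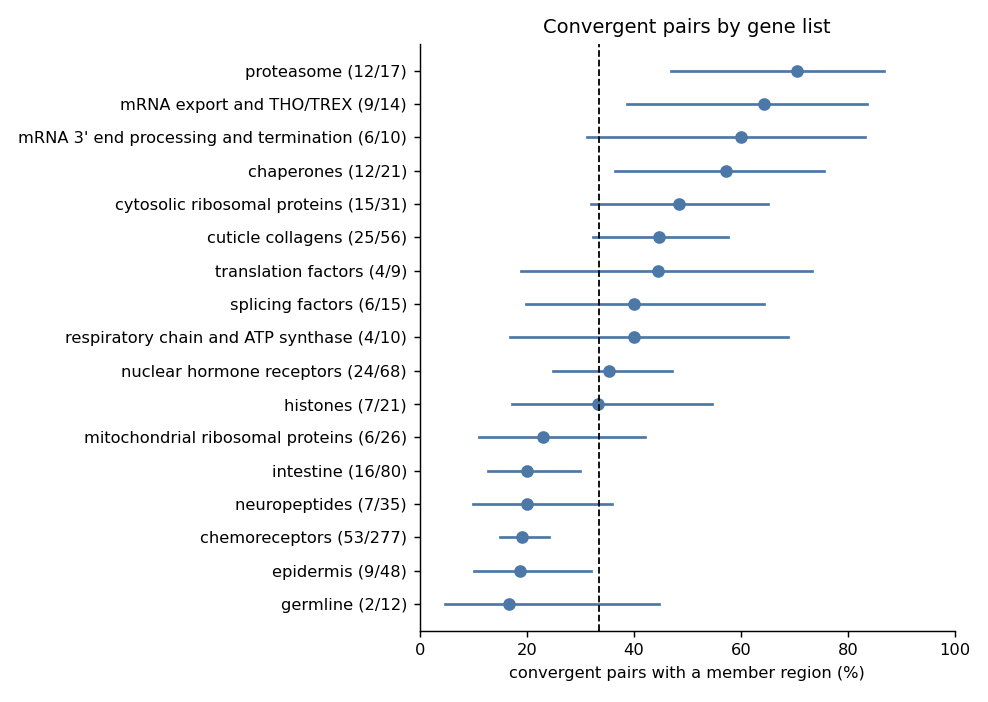
Share of convergent pairs with a member for each gene list of 9 or more pairs, with 95% Wilson intervals (lines) and the count of pairs with a member over all pairs of the list; the dashed line is the 33.5% of all pairs. The intervals of the proteasome, export and chaperone lists lie above the line, and those of the chemoreceptor, intestine and epidermis lists below it.

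Base content at the summits was read in windows of 50 bp to each side. Member windows had a G and C content of 33.6% ± 8.12 (SD, n = 1174 windows), and those in the optimal list 36.2% ± 8.65 (n = 62). Windows at other 3′ ends had 32.3% ± 8.01 (n = 1499), and windows 300 bp to the left and right of members had 35.3% and 35.1%. For all members the mean was thus lower at the summit than on either side. Optimal members had 35.3% and 36.0% on their sides, close to the 36.2% at the summit. In windows of 51 bp, optimal members had 36.6% at the summit and 39.8% at 500 bp to either side. The summit was thus not their richest point in G and C. No test was run, and the SD describes single windows, not the means.

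AATAAA, searched on both strands, was present in 361 member windows (30.7%, 28.2 to 33.4%), in 16 of 62 optimal ones (25.8%, 16.6 to 37.9%), in 31.6% of windows at other 3′ ends and in 25.9% of all autosomal ones. Windows at the midpoints of pairs, which sit closer to the gene ends, held it in 56.7% of pairs with a member (53.6 to 59.8%) and in 53.2% of pairs with no pooled region within 1000 bp (50.8 to 55.6%). In the last 40 bases of each gene it was found at 49.2% of ends in pairs with a member (47.0 to 51.5%), 49.7% in pairs without (48.1 to 51.2%) and 41.7% in pairs with an optimal member (33.2 to 50.6%). These intervals overlap in both comparisons.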

How the data were processed

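ChIP-seq regions of 2 biological replicates (1 group) were analysed from narrowPeak lists on ce11. The authors deposited relaxed lists (peaks plus background) per replicate and for both pooled, the input of a test of irreproducible discovery rate (IDR), and an optimal list at the IDR threshold. The pooled lists come from both replicates' alignments and 1 further file of unstated role, per the accompanying records. The sources used here do not give aligner, peak caller or control subtraction. Heights are signal values as the authors deposited them, of unstated scaling, used only within a list. The deposited −log10 q-value was used for 1 count: 79 members had its highest value, 2.97. Fragments were 150 to 350 bp, per the labels. Read depth is unknown. Whether replicates came from separate cultures is given only as "biological replicate".

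Protein-coding genes came from Ensembl release 115 and neighbours were consecutive by start. A replicate held a pooled region when 1 of its own regions covered the pooled summit, and the highest such region gave the replicate height. Shares carry 95% Wilson intervals over regions or pairs, which cover counting only. No hypothesis test was made. Named genes were both genes at the 20 highest members, up to 3 pairs per list with the highest member, and pairs with 3 members; best-9, prom-1, top-1 and aex-5 with their partners, and rpl-4, lie outside this rule and were named after their values were seen. No aly gene and no unc-119 gene is in such a pair. Members and the 21 lists were chosen with earlier results of these data known. Assignment was checked on simulated summits. Python 3.11.15, numpy 2.4.6, scipy 1.17.1 and matplotlib 3.10.9 were used.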

Additional observations from a re-analysis of the deposited data

How the results depend on the processing

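Each of 12 results was recomputed under alternatives, 93 values in all. Of these, 56 stayed within the limit set for their kind and 37 did not. The limit was 1.5 times for the number of members, otherwise an interval or the replicates' SD. A reversal could be scored only for the Spearman rho of replicate heights, which kept its sign. The cause of the shifts, beyond how each alternative was built, was not tested. The number of members was 542 with only pairs that do not overlap and 808 to 1522 otherwise. Using the centre of a region in place of its summit left 1174. That outcome, counted among the 56, was largely fixed in advance, since in regions of 396 bp the summit lies at or next to the centre. Of pairs, 25.5% had a member with a window of 250 bp, 38.8% with 1000 bp, 29.4% with only separate pairs, 31.1% with all gene biotypes as neighbours, and 40.9 to 42.2% when 1 replicate was left out by using the other's list. In the higher-ranked part of the optimal list, its upper 50%, lay 2.13% of members against 1.06% of all pooled regions. The ratio of median heights was 1.07 with 1000 bp and 1.09 to 1.15 with 1 replicate left out. Both replicates held 49.5% of members with 1000 bp, 98.4% of optimal members, 100% of those in that upper part, and 36.0% when the replicate's summit had to lie within 100 bp. The 98.4% and 100% are shaped by how the optimal list was selected. Summits between the ends or in the overlap were 22.1% as reported, 27.8% with 250 bp, 17.3% with 1000 bp, 14.99% with ends at most 500 bp apart, 39.9% in separate pairs, 30.6% of optimal members, 32.0% in that upper part and 20.1 to 23.3% with 1 replicate left out. The density ratio of convergent to other 3′ ends, an analysis added after seeing the data, was 1.42 to 1.61 with 1 replicate left out. AATAAA was in 16.0% of windows of 25 bp and 48.5% of 100 bp to each side, and, at the reported 50 bp, in 16.0% for members in that upper part. No paired analysis was possible because there was only 1 group. Without read counts, neither depth nor the precision of a height can be given, and neighbours in height cannot be ranked apart.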
